A study of Mus musculus with 11 samples.

Results

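Interleukins, colony-stimulating factors (CSFs) and interferons, together with their receptors and the JAK-STAT proteins behind them, were followed in the colon of mice carrying colitis-associated tumors. The genes were chosen by name. Every gene of the deposited table whose symbol begins with Il, Csf, Jak, Stat or Socs and a digit, or with Ifn, or is Tyk2, was taken, except for 16 symbols of the IL-1 and IL-6 families. This gave 54 of the 7868 genes in the table. The study profiled colon tissue by 3′ mRNA sequencing, which reads each transcript near its 3′ end, in 7 AOM/DSS mice and 4 naive mice. AOM/DSS mice were female and wildtype, received the carcinogen azoxymethane (AOM) once at 10 mg/kg on the day counted as 0, and from day 7 drank 1.5% dextran sulfate sodium (DSS), an agent that damages the epithelium, in 3 cycles of 5 days with 16 days of recovery. Naive mice, also female and wildtype, were kept untreated for the same span, and tissue was taken on day 70. The labels give no age and call each sample a biological replicate. An age range at AOM injection is given in the study's methods for the mouse lines named there. The table's own title applies the term full-thickness to the naive colon, the study's supplement applies it to the tumors, and how the tumors were cut out is not described for these libraries.

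The table gives 1 mean per gene and group on the authors' normalized scale, with a p-value and a false discovery rate (FDR, the p-value adjusted over all genes tested), and holds no values per mouse. A gene is said to have risen or fallen where its FDR was 0.05 or less in the authors' gene-specific analysis. The table stops at a p-value of 0.05, so a gene that is not listed either missed that limit or was not tested, and nothing is said of it here.

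Cytokines of these families are secreted proteins that bind paired receptor chains on the cell surface. Most of the receptors have no enzyme of their own and rely on Janus kinases (JAKs), which phosphorylate the receptor and then a STAT factor that enters the nucleus and switches on genes, among them those of the SOCS proteins that shut the signal down. IL-17 and IL-36 receptors work differently, through adaptor proteins and NF-κB. In the gut, CSFs sustain neutrophils and macrophages, receptors that share the common gamma chain serve lymphocytes, and IL-17, IL-22 and interferons act on the epithelium and on immune cells.

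Most of the listed genes were higher in AOM/DSS tissue. Of the 54, 47 passed the test (87%, against 67.7% of all listed genes), 40 higher and 7 lower, where 39.7% of all listed genes were higher and 27.9% lower. Among genes past the test, 85.1% of these 47 were higher, against 58.7% of all 5323. In the GENCODE M21 annotation 118 protein-coding genes have a symbol of this kind. The 47 that passed are 39.8% of them, against 22.4% of the 23773 genes the authors tested, 13.1% higher and 9.25% lower. These shares have unlike bases. Some of the 118 may not have been tested, and the 23773 are not all protein-coding. Of the 118, 64 were not listed. The 54 had a median log2 fold, AOM/DSS over naive, of 2.00 (0.99 after adding 1 to each mean), where all listed genes had 0.44 (0.36).

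**Figure D1:**
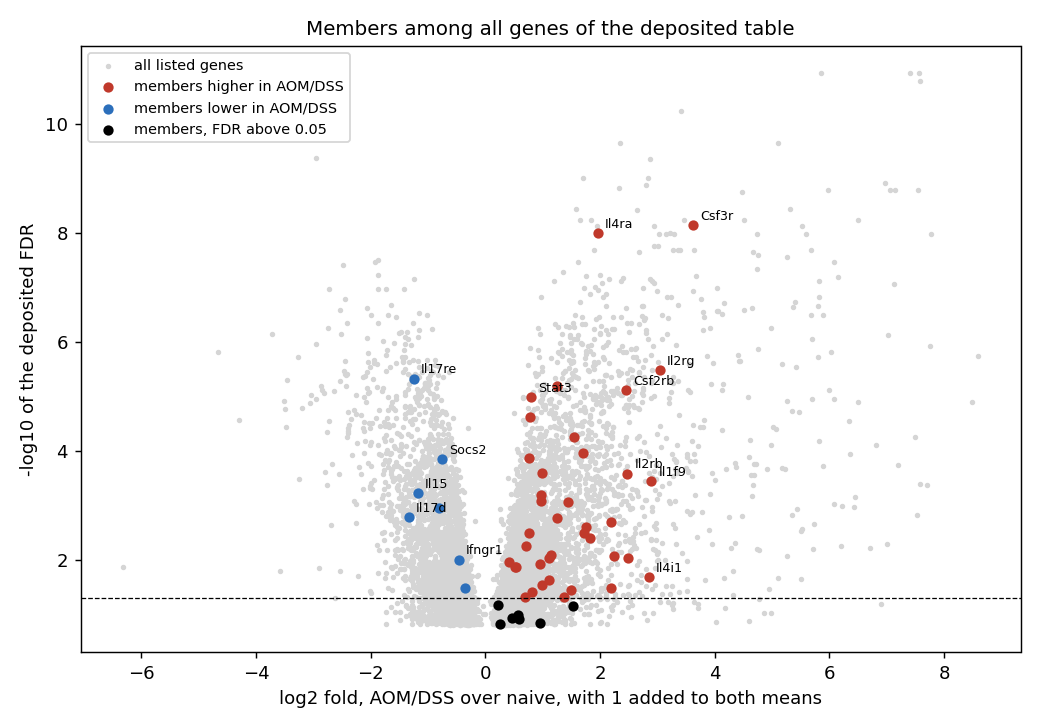
Each point is a gene of the deposited table, with its log2 fold (AOM/DSS over naive, 1 added to both means) on the x axis and −log10 of its deposited FDR on the y axis. The cytokine and JAK-STAT genes reported here are coloured, and the dashed line marks an FDR of 0.05. The higher genes lie to the right and the 7 lower genes to the left, with Csf3r and Il4ra at the lowest FDR.

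The genes that rose span a wide range of levels, while those that fell were all readily detected in naive tissue. Leaving out the 7 risers listed at 0 in naive tissue, folds of the other 33 ran between 1.35 (Socs6) and 82.9 (Il1f9), and 16 of them were at least 4. Naive means of the 7 fallers ran between 8.99 (Il17d) and 242 (Ifngr1), and their folds between 1.28 and 3.03. A gene near 0 in naive tissue has little room to fall, and this range was not taken over all fallers of the table. A mean listed at 0 in naive tissue occurred for 9 of the 54 genes (16.7%), against 6.35% of all listed genes, and a mean listed at 0 in AOM/DSS tissue for 0 of the 54, against 0.877% of all listed genes. A gene at 0 in naive tissue can only be higher in AOM/DSS, so these shares follow in part from the many risers among the 54. The naive group also had fewer mice, 4 against 7.

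**Figure D2:**
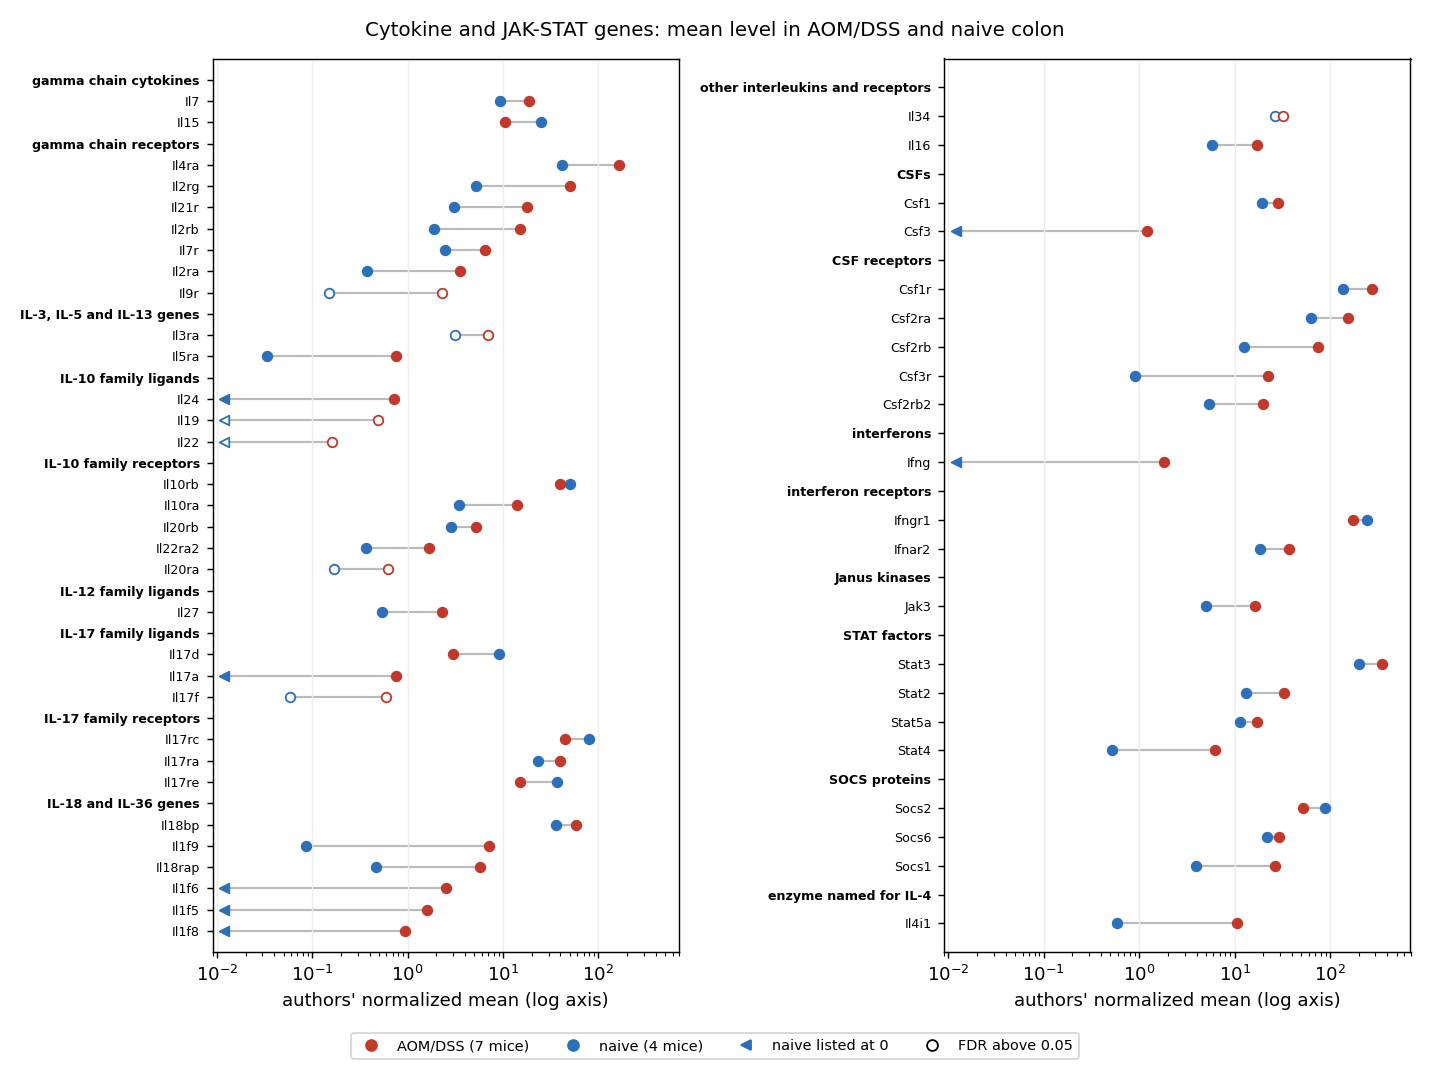
The authors' normalized mean of each gene reported here is given on a log axis, by role, for AOM/DSS (red, 7 mice) and naive tissue (blue, 4 mice). Open points mark an FDR above 0.05 and arrowheads a naive mean listed at 0. The means carry no error bars because the table holds no values per mouse. Red lies to the right of blue except for Il15, Il10rb, Il17d, Il17rc, Il17re, Ifngr1 and Socs2.

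CSF receptors rose without exception, 5 of 5. Of all genes tested, 13.1% rose and 9.25% fell, to be set beside this and the later counts by role and marker list. Csf3r, the receptor of the neutrophil growth factor G-CSF, averaged 22.5 in AOM/DSS and 0.904 in naive tissue, 24.8-fold higher (gene-specific analysis, FDR = 7.1e-09), the lowest FDR of the 54 genes. Csf2rb, the signaling chain shared by the GM-CSF, IL-3 and IL-5 receptors, stood at 74.3 in AOM/DSS against 12.7 in naive tissue, 5.86-fold higher (gene-specific analysis, FDR = 7.55e-06). Its mouse-specific relative Csf2rb2, which serves IL-3 alone, stood at 19.7 in AOM/DSS against 5.38 in naive tissue, 3.66-fold higher (gene-specific analysis, FDR = 0.000109). The sequences of Csf2rb and Csf2rb2 are so alike that reads may have been shared between them, and how such reads were counted is not given in the sources used here. Csf2ra, the chain that binds GM-CSF, stood at 154 in AOM/DSS against 64.1 in naive tissue, 2.41-fold higher (gene-specific analysis, FDR = 6.45e-06). The M-CSF receptor Csf1r, on which macrophages depend, had means of 274 in AOM/DSS and 138 in naive tissue.

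Of the CSFs themselves, both listed genes rose and Csf2 was not listed. Csf3, which encodes G-CSF, had a mean of 1.22 in AOM/DSS tissue, with naive tissue listed at 0 (gene-specific analysis, FDR = 0.00785). Csf1, which encodes M-CSF, stood at 28.6 in AOM/DSS against 19.6 in naive tissue, 1.46-fold higher (gene-specific analysis, FDR = 0.0135). Il34, the other ligand of the M-CSF receptor, did not pass, with means of 32.0 in AOM/DSS and 26.6 in naive tissue (gene-specific analysis, FDR = 0.146). Markers of the cells that carry these receptors were higher as well. Of 10 neutrophil markers, Csf3r among them, 8 rose and Mmp8 and Ly6g were not listed, with summed means of 988 in AOM/DSS and 12.9 in naive tissue, and of 11 macrophage markers, Csf1r among them, 9 rose, Mertk fell and Adgre1 was not listed, with summed means of 1900 in AOM/DSS and 853 in naive tissue. These sums, here and later, cover the listed markers. Csf3r and Csf1r are part of the counts and sums set beside them, so the shared direction is partly built in. Csf1r gave 274 of the macrophage sum in AOM/DSS and 138 in naive tissue. Most of the neutrophil sum in AOM/DSS tissue came from S100a8 and S100a9. S100a8 stood at 451 in AOM/DSS against 1.50 in naive tissue, and S100a9 at 397 in AOM/DSS against 1.08 in naive tissue. The part of these cells in the receptor differences was not tested. In whole tissue, more cells of a type and more RNA per cell cannot be told apart.

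Receptors that use the common gamma chain rose in 6 of 8 cases, against 13.1% of all genes tested, while their ligands were mixed. The gamma chain gene Il2rg itself stood at 50.01 in AOM/DSS and 5.21 in naive tissue, 9.59-fold higher (gene-specific analysis, FDR = 3.22e-06). Its partners in the IL-2 receptor rose too, Il2ra to 3.50 in AOM/DSS against 0.372 in naive tissue, 9.43-fold (gene-specific analysis, FDR = 0.00318). Il2rb, which also carries IL-15 signals, stood at 14.98 in AOM/DSS against 1.87 in naive tissue, 8.01-fold higher (gene-specific analysis, FDR = 0.000256). The IL-21 receptor Il21r stood at 17.8 in AOM/DSS against 3.08 in naive tissue, 5.76-fold higher (gene-specific analysis, FDR = 0.00197). Also past the test were Il4ra, the chain of the IL-4 and IL-13 receptors, with means of 164 in AOM/DSS and 41.5 in naive tissue, and the IL-7 receptor Il7r with 6.51 in AOM/DSS and 2.46 in naive tissue. The IL-9 receptor Il9r missed the threshold, at 2.31 in AOM/DSS against 0.148 in naive tissue (gene-specific analysis, FDR = 0.0685), and Il15ra was not listed. Il2rg and Il2ra overlap Gm20489 and Gm37881 on their own strand, neither of them listed. How reads in such overlaps were counted is not given in the sources used here.

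Among the gamma chain ligands, Il7, which supports lymphocyte survival, stood at 18.9 in AOM/DSS and 9.21 in naive tissue, 2.05-fold higher (gene-specific analysis, FDR = 0.000824). Il15, which sustains NK cells and memory T cells, stood at 10.5 in AOM/DSS against 24.9 in naive tissue, 2.38-fold lower (gene-specific analysis, FDR = 0.000583). Il2, Il4, Il9 and Il21 were not listed. Il7 overlaps the antisense gene Gm16685, which rose as well (5.19 in AOM/DSS against 0.863 in naive tissue). Lymphocyte markers moved in the same direction as the receptors, where 13.1% of all genes tested rose. Of 18 T cell markers 17 rose and Cd6 did not pass, with summed means of 144 in AOM/DSS and 15.8 in naive tissue; of 8 NK and innate lymphoid markers 5 rose, Klrk1 did not pass, and Ncr1 and Prf1 were not listed, with 22.9 in AOM/DSS and 3.37 in naive tissue; of 10 B cell markers 8 rose, Blnk did not pass and Fcer2a was not listed, with 254 in AOM/DSS and 83.8 in naive tissue. Most of the naive B cell sum came from Blnk, at 70.2 in naive and 84.6 in AOM/DSS tissue. The part of these lymphocytes in the receptor values was not tested.

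Of 10 further genes of the IL-3, IL-5, IL-13, IL-25 and IL-31 systems, 8 were not listed. Il5ra, the eosinophil receptor chain, rose, with means of 0.746 in AOM/DSS and 0.0335 in naive tissue. Il3ra did not pass, at 6.94 in AOM/DSS against 3.11 in naive tissue (gene-specific analysis, FDR = 0.138). Il3, Il5, Il13, Il25, Il31, Il13ra1, Il13ra2 and Il31ra were not listed.

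The IL-17 family changed in both directions. Of its receptors, Il17ra, the chain common to the family, stood at 39.7 in AOM/DSS and 23.1 in naive tissue, 1.72-fold higher (gene-specific analysis, FDR = 0.000131). Il17re, the chain for IL-17C, fell to 15.03 in AOM/DSS against 37.1 in naive tissue, 2.47-fold lower (gene-specific analysis, FDR = 4.65e-06). Il17rc, the partner chain for IL-17A and IL-17F, stood at 44.5 in AOM/DSS against 78.9 in naive tissue, 1.77-fold lower (gene-specific analysis, FDR = 0.00111). Il17rc and Il17re are neighbours on one strand of chromosome 6, 0.669 kb apart, at chr6:113471427-113483140 and chr6:113458484-113470758 of mm10. Both are known mainly from cells outside the blood lineage, such as epithelium. Of 10 epithelial markers Krt8, Krt19 and Vil1 fell and the other 7, Epcam and Cdh1 among them, were not listed. Summed means of Krt8, Krt19 and Vil1 alone were 4359 in AOM/DSS and 6811 in naive tissue. As each of them fell, that sum could only be lower, and it says nothing of the other 7 markers. All 10 smooth muscle markers fell, against 9.25% of all genes tested, with summed means of 4945 in AOM/DSS and 12479 in naive tissue. The part of either marker list in the Il17rc and Il17re values was not tested.

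Of the 5 IL-17 ligands 1 rose and 1 fell. Il17a, the product of type 17 lymphocytes that acts on epithelium and draws neutrophils, had a mean of 0.754 in AOM/DSS tissue, with naive tissue listed at 0 (gene-specific analysis, FDR = 0.038). Its close relative Il17f did not pass, at 0.592 in AOM/DSS against 0.0586 in naive tissue (gene-specific analysis, FDR = 0.117). Il17d, which is not a product of type 17 lymphocytes, moved the other way, at 2.97 in AOM/DSS against 8.99 in naive tissue, 3.03-fold lower (gene-specific analysis, FDR = 0.00163). Il17b, Il17c, Il17rb and Il17rd were not listed.

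In the IL-10 family the IL-10 receptor chains differed. Il10ra, the chain that binds IL-10 and is carried mainly by leukocytes, stood at 13.9 in AOM/DSS and 3.43 in naive tissue, 4.06-fold higher (gene-specific analysis, FDR = 0.00241). Il10rb, the widely expressed chain shared with IL-22 and type III interferons, stood at 39.6 in AOM/DSS against 50.8 in naive tissue, 1.28-fold lower (gene-specific analysis, FDR = 0.0325). Il22ra2, which encodes the secreted IL-22 binding protein that blocks IL-22, stood at 1.69 in AOM/DSS against 0.362 in naive tissue, 4.67-fold higher (gene-specific analysis, FDR = 0.0285). Il20rb, a chain of the IL-20 receptor, stood at 5.16 in AOM/DSS against 2.83 in naive tissue, 1.82-fold higher (gene-specific analysis, FDR = 0.0463), and its partner Il20ra did not pass, at 0.616 in AOM/DSS against 0.167 in naive tissue (gene-specific analysis, FDR = 0.114). The ligands were scarce. Il24 had a mean of 0.715 in AOM/DSS tissue, with naive tissue listed at 0 (gene-specific analysis, FDR = 2.34e-05). Il19 (0.489, FDR = 0.101) and Il22 (0.161, FDR = 0.0655), both listed at 0 in naive tissue, did not pass the gene-specific analysis. Il10, Il20 and Il22ra1 were not listed.

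Of 11 genes counted together with IL-36 and IL-18, 6 rose and the other 5 were not listed. IL-36 cytokines are IL-1 relatives made chiefly by epithelia. Il1f9, which encodes IL-36γ, averaged 7.08 in AOM/DSS and 0.0853 in naive tissue, 82.9-fold higher (gene-specific analysis, FDR = 0.000351). With 1 added to both means its log2 fold was 2.90 in place of 6.37, the naive mean being low. Il1f6 (IL-36α) had a mean of 2.55 in AOM/DSS tissue, with naive tissue listed at 0 (gene-specific analysis, FDR = 0.00387). The same held for Il1f8 (IL-36β) at 0.931 (FDR = 0.0115) and for Il1f5, the IL-36 receptor antagonist, at 1.59 (gene-specific analysis, FDR = 0.0466). These 4 genes lie on one strand of a stretch of chromosome 2 and all rose, while Il1f10 beside them was not listed. Il18rap, the accessory chain of the IL-18 receptor, stood at 5.68 in AOM/DSS against 0.463 in naive tissue, 12.3-fold higher (gene-specific analysis, FDR = 0.0324). Il18bp, the secreted inhibitor of IL-18, stood at 58.7 in AOM/DSS against 35.7 in naive tissue, 1.64-fold higher (gene-specific analysis, FDR = 0.00547). Il18r1, Il1rapl1, Il1rapl2 and Il1bos were not listed either.

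Of the IL-12 family genes caught by the naming rule only Il27 was listed, and it rose. Il27, the p28 subunit of IL-27, stood at 2.31 in AOM/DSS against 0.541 in naive tissue, 4.26-fold higher (gene-specific analysis, FDR = 0.0232). It overlaps Apobr on the other strand, which also rose (9.74 in AOM/DSS against 3.69 in naive tissue), and whether counting used the strand is not given in the sources used here. Il12a, Il12b, Il23a and the 4 receptor genes Il12rb1, Il12rb2, Il23r and Il27ra were not listed. Il16, a chemoattractant for CD4+ cells, stood at 17.3 in AOM/DSS against 5.74 in naive tissue, 3.01-fold higher (gene-specific analysis, FDR = 0.000838). It overlaps Stard5 on the other strand, which rose too (31.3 in AOM/DSS against 20.5 in naive tissue). Il4i1, an amino acid oxidase induced by IL-4 and so caught by its name alone, stood at 10.5 in AOM/DSS against 0.591 in naive tissue, 17.8-fold higher (gene-specific analysis, FDR = 0.0204). It shares its strand with the overlapping Nup62, which rose too (49.7 in AOM/DSS against 35.0 in naive tissue), so part of its reads cannot be assigned with certainty.

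Interferon genes were nearly all absent from the table, in which 33.1% of all genes tested were listed. Of 21, Ifng alone was listed, with a mean of 1.83 in AOM/DSS and a naive mean listed at 0 (gene-specific analysis, FDR = 0.0357). Ifng encodes interferon-γ, the product of T and NK cells. Its receptor chain Ifngr1 was lower, at 174.9 in AOM/DSS against 242 in naive tissue, 1.39-fold (gene-specific analysis, FDR = 0.00973). Ifnar2, a chain of the type I interferon receptor, stood at 37.3 in AOM/DSS against 18.5 in naive tissue, 2.01-fold higher (gene-specific analysis, FDR = 0.000635). Ifnar1, Ifngr2 and Ifnlr1 were not listed. Ifnar2 and Il10rb are adjacent on one strand of chromosome 16, 0.575 kb apart, and moved in opposite directions. The annotation places a read-through gene, Gm21970, over both, so reads of either may have been assigned to it. Ifng and Stat4 overlap genes on their own strand as well, Gm49751 and Gm28177, neither of them listed.

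Downstream of the receptors, 4 of the 6 STAT genes reported here rose, against 13.1% of all genes tested. Stat4, which carries IL-12 signals in T and NK cells, stood at 6.21 in AOM/DSS and 0.519 in naive tissue, 12.0-fold higher (gene-specific analysis, FDR = 0.00849). Stat2, a factor of type I interferon signaling, stood at 33.0 in AOM/DSS against 13.2 in naive tissue, 2.50-fold higher (gene-specific analysis, FDR = 0.00166). Stat3, the factor of IL-6, IL-10 and IL-22, stood at 348 in AOM/DSS against 201 in naive tissue, 1.73-fold higher (gene-specific analysis, FDR = 1.03e-05). Stat5a, a factor of IL-2, IL-7 and GM-CSF, had means of 17.1 in AOM/DSS and 11.5 in naive tissue. Its gene overlaps that of Stat3 at the end, on the other strand. Stat5b and Stat6 were not listed.

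Of the 4 Janus kinase genes Jak3 alone was listed, at 16.6 in AOM/DSS against 5.03 in naive tissue, 3.30-fold higher (gene-specific analysis, FDR = 5.53e-05). Jak3 is the kinase that binds the common gamma chain. It overlaps Insl3 on its own strand, which rose as well (33.8 in AOM/DSS against 19.0 in naive tissue). Jak1, Jak2 and Tyk2 were not listed.

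SOCS genes, the feedback inhibitors, moved in both directions. Socs1, which restrains interferon-γ and gamma chain signals, stood at 26.7 in AOM/DSS against 3.93 in naive tissue, 6.79-fold higher (gene-specific analysis, FDR = 0.00893). Socs2, best known as the inhibitor of growth hormone signaling, stood at 51.8 in AOM/DSS against 88.5 in naive tissue, 1.71-fold lower (gene-specific analysis, FDR = 0.000141). Socs6 stood at 29.4 in AOM/DSS against 21.8 in naive tissue, 1.35-fold higher (gene-specific analysis, FDR = 0.0108), less than the 0.44 on the log2 scale by which the median listed gene was higher. Socs4, Socs5 and Socs7 were not listed.

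**Figure D3:**
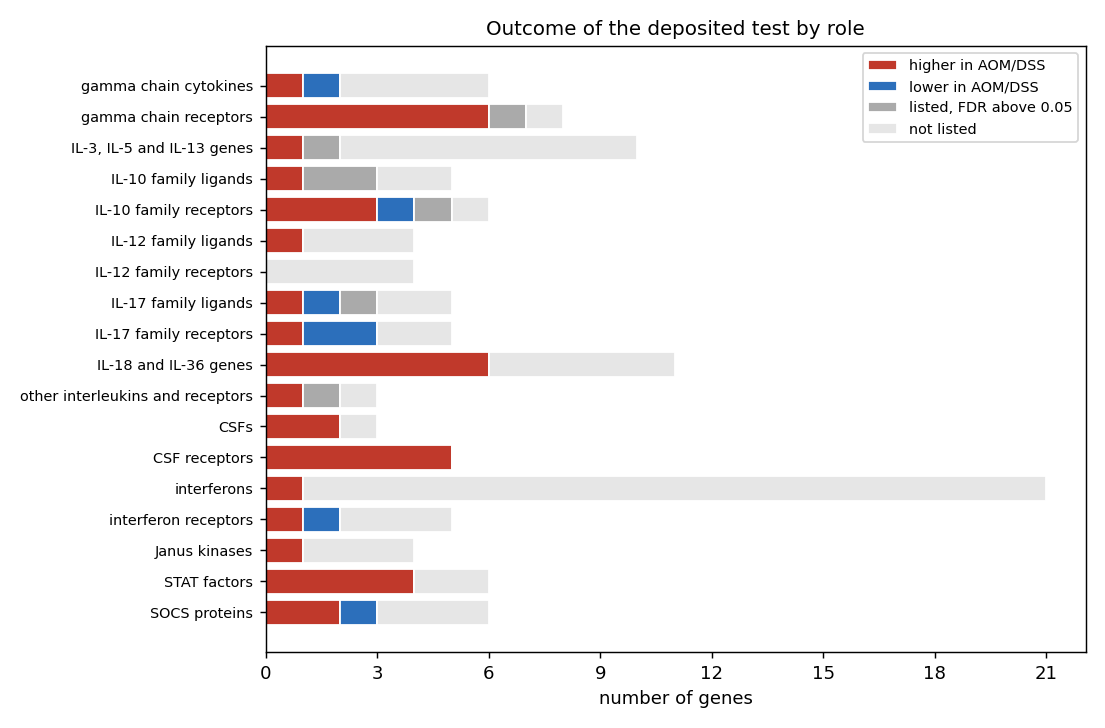
The bars count the reported genes of each role by outcome in the deposited test, with higher in AOM/DSS in red, lower in blue, listed with an FDR above 0.05 in dark grey and not listed in light grey. CSF receptors rose in 5 of 5 cases, gamma chain receptors in 6 of 8 and the STAT factors reported here in 4 of 6, while 20 of 21 interferon genes were not listed. Of all genes tested, 13.1% rose, 9.25% fell and 33.1% were listed.

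For the scarcest genes the spread between mice could be seen behind the means. Many low means of the table repeat, and equal sums of whole reads once each mouse is given its own value for 1 read. Searching for such reads gave counts per mouse for 9 of the 15 genes tried in AOM/DSS tissue and 16 of the 35 tried in naive tissue. The mice can be ordered by their inferred depth alone and cannot be matched to the labelled samples, and the reads are an inference from the means. The 6 genes that gave no answer in AOM/DSS tissue, Il24, Il19, Il27, Il1f5, Il1f6 and Il9r, are missing from what follows, so the genes shown are not all of the scarce ones. The search was thought of after the repeated values had been seen.

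Csf3 had 0, 7, 5, 53, 7, 6 and 3 reads in the 7 AOM/DSS mice, ordered by falling depth, against none in the 4 naive mice. The fourth deepest mouse held most of them, and 1 AOM/DSS mouse had none. In Ifng the counts were 8, 7, 33, 75, 0, 0 and 3 in AOM/DSS mice and 0 in each naive mouse. Again the fourth deepest mouse was highest, and 2 AOM/DSS mice were at 0 like all naive mice. Il17a gave 8, 10, 2, 29, 3, 0 and 0 reads in AOM/DSS mice and none in naive mice. Il1f8 gave 3, 8, 23, 24, 7, 0 and 0 in AOM/DSS mice, again with none in naive mice. Both genes were therefore at 0 in 2 AOM/DSS mice, so that the groups overlapped.

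Il17f had 0, 1, 9, 11, 3, 8 and 7 reads in AOM/DSS mice against 0, 0, 2 and 0 in naive mice, the naive mice being ordered by depth as well. Il22 was the scarcest, with 1, 3, 0, 6, 0, 0 and 1 reads in AOM/DSS mice and none in naive mice. Both missed the test, and in both some AOM/DSS mice were as low as naive mice. Over the 9 genes the fourth deepest mouse had the most reads in 6, those named so far. Without it the AOM/DSS means of Csf3, Ifng and Il17a would be 0.487, 0.806 and 0.365, in place of 1.22, 1.83 and 0.754, that is 2.51, 2.27 and 2.06 times smaller, and that of Il22 0.0810 in place of 0.161. This mouse and these values were picked after the reads had been seen, and no test was made of them. Whether the calls of these genes hold without that mouse could not be computed from the table.

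In the other 3 genes, all of receptors or of the IL-22 binding protein, another mouse was highest. Il5ra had 3, 5, 11, 7, 10, 8 and 6 reads in AOM/DSS mice against 0, 0, 0 and 1 in naive mice, and its levels did not overlap between groups. That was so for 1 of the 9 genes, near the 14.2% of the 507 genes of the table with a higher AOM/DSS mean whose reads could be found in both groups. Il22ra2 had 31, 11, 29, 14, 5, 13 and 15 reads in AOM/DSS mice against 7, 1, 5 and 0 in naive mice. Il20ra had 7, 4, 4, 1, 11, 11 and 3 reads in AOM/DSS mice against 5, 0, 0 and 1 in naive mice. In Il22ra2 and Il20ra the lowest AOM/DSS mouse lay below the highest naive mouse. Where naive reads alone were found, they were few for several genes with large folds: 1, 0, 2 and 0 for Il1f9, 11, 2, 0 and 5 for Stat4, 7, 0, 6 and 3 for Il18rap, and 4, 4, 4 and 1 for Il2ra. Naive levels of Il2rg, in contrast, came from 55, 39, 51 and 34 reads. Reads made without molecular identifiers are not independent molecules, and no interval was computed from these counts.

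**Figure D4:**
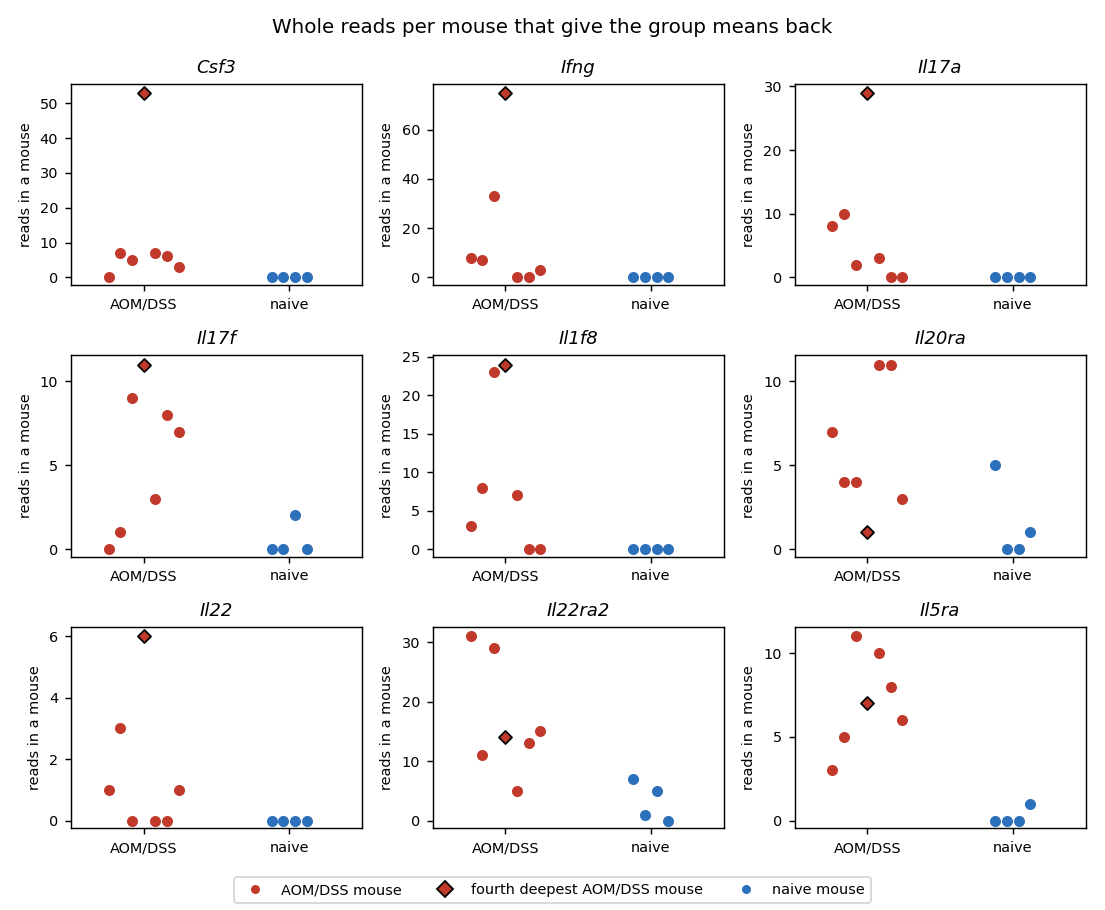
The y axis gives the whole reads in each mouse that give the deposited mean back, for the 9 genes with an answer in both groups, AOM/DSS mice (red) left of naive mice (blue), and within a group from the deepest mouse on the left. The fourth deepest AOM/DSS mouse (diamond) is highest in Csf3, Ifng, Il17a, Il17f, Il1f8 and Il22, and not in Il20ra, Il22ra2 or Il5ra.

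Promoters of the genes that moved were read for the letters that STAT factors are known to bind. The GAS element, TTCNNNGAA, takes STAT dimers, and the interferon-stimulated response element (ISRE), searched as 2 GAAA runs with any 2 bases between them, takes a complex that holds STAT2 and IRF9. Both were searched on both strands in 300 bases, 250 before the start site and 50 after it, for the 37 of 54 genes in the RefSeq promoter table (GRCm38.p6). Where the table gives a gene several promoters, the counts use the first. A GAS element was found in 5 of 27 higher and 1 of 4 lower genes, against 8.47% of all 27025 genes of the promoter table, 8.15% of all genes that rose and 5.38% of all that fell. An ISRE was found in 2 of 27 higher and 0 of 4 lower genes, against 3.49% of all genes, 5.42% of all that rose and 2.28% of all that fell. GAS matches in first promoters were in Csf2rb2, Ifnar2, Ifng, Il1f9 and Il7r among the higher genes and in Il17d. Second promoters, left out of these counts, held an ISRE in Stat4 and a GAS match in Il1f5, 97 and 98 bases before the start site. Matches are descriptions of sequence, not sites shown to be bound, and the shares were not tested.

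The bases before the first start site are shown for 3 genes, the 2 risers with an ISRE in the first promoter and the riser with the highest fold against a naive mean above 0, 5′ to 3′ on the strand of the gene with the matches in capitals. Socs1 lies on the minus strand (chr16:10785537-10785786) and holds 2 overlapping ISRE matches, which begin 83 and 77 bases before the start site. Stat2 lies on the plus strand (chr10:128270248-128270497), and its ISRE, read on the other strand, begins 222 bases before the start site. Il1f9 lies on the plus strand (chr2:24186226-24186475), with its GAS match 128 bases before the start site.
Socs1: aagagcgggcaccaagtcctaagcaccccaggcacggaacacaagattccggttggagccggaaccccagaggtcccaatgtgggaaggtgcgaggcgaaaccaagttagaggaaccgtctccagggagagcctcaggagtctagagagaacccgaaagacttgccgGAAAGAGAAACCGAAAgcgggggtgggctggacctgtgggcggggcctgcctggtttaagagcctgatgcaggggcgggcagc
Stat2: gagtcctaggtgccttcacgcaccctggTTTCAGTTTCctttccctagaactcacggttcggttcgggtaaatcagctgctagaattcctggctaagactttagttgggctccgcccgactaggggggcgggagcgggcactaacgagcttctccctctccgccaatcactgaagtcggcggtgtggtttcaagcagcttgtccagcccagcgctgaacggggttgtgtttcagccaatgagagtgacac
Il1f9: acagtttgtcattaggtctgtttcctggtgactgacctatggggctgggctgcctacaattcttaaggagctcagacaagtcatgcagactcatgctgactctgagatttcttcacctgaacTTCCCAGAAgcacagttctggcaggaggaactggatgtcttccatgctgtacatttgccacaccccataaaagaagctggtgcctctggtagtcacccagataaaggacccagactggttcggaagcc

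Other genes of these pathways, outside the naming rule, were counted from lists. Of all genes tested, 13.1% rose and 9.25% fell, to be set beside the counts of these lists. Of 24 further class I cytokines and receptors, 8 rose, 3 fell, Kitl did not pass and 12 were not listed. Clcf1, an IL-6 family ligand, stood at 9.27 in AOM/DSS and 1.05 in naive tissue, and the oncostatin M receptor Osmr at 21.6 in AOM/DSS against 6.93 in naive tissue. Crlf2, which pairs with the IL-7 receptor to bind TSLP, rose as well (40.1 in AOM/DSS against 13.8 in naive tissue), and Ebi3, the partner subunit of IL-27, stood at 7.22 in AOM/DSS against 2.28 in naive tissue. Those that fell were Lifr, Ghr, the growth hormone receptor, at 18.2 in AOM/DSS against 30.1 in naive tissue, and Prlr.

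Inhibitors of JAK-STAT signaling rose in 7 of 16 cases, against 13.1% of all genes tested. None fell, against 9.25% of all genes tested, with Cbl not passing and 8 not listed. Usp18, which blocks the type I interferon receptor at Ifnar2, stood at 14.9 in AOM/DSS and 1.53 in naive tissue, and Cish, a SOCS relative induced by STAT5, at 22.8 in AOM/DSS against 12.7 in naive tissue. The phosphatase gene Ptpn6 stood at 54.0 in AOM/DSS against 20.7 in naive tissue. Ptprc, the leukocyte phosphatase CD45 (42.0 in AOM/DSS against 6.06 in naive tissue), marks leukocytes in general. Of 8 interferon regulatory factors reported here 4 rose, Irf1, Irf4, Irf5 and Irf9, while Irf2 fell. Irf9, the DNA-binding partner of STAT2, stood at 67.1 in AOM/DSS against 21.2 in naive tissue. Irf3, Irf7 and Irf8 did not pass.

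Known targets of STAT factors rose in 11 of 21 cases and 3 fell, where 13.1% and 9.25% of all genes tested did so. A further 2 did not pass and 5 were not listed. Among the interferon-γ targets, Gbp2, a GTPase, stood at 119 in AOM/DSS and 13.7 in naive tissue and Tap1, the peptide transporter, at 127 in AOM/DSS against 24.5 in naive tissue. Pim1, a kinase gene driven by STAT3 and STAT5, stood at 114 in AOM/DSS against 19.2 in naive tissue. Retnla, a STAT6 target of macrophages, fell to 6.45 in AOM/DSS against 82.9 in naive tissue, whereas Arg1, another STAT6 target, stood at 69.5 in AOM/DSS against 0.332 in naive tissue. Mcl1 and Ccnd2 also fell. Of 11 lymphocyte fate factors reported here 5 rose, Rora fell, Tbx21 did not pass and 4 were not listed. Foxp3, the factor of regulatory T cells, stood at 10.6 in AOM/DSS against 1.56 in naive tissue and Prdm1, of plasma cells and effector T cells, at 29.7 in AOM/DSS against 2.46 in naive tissue.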

How the data were processed

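RNA of 11 colon samples was sequenced by the authors as 3′ mRNA libraries. Reads were trimmed (the submitters' processing notes name cutadapt), aligned with STAR to mm10, counted on Ensembl transcripts, normalized, and compared in Partek Flow by its gene-specific analysis, which picks a model for each gene. Which normalization and which models were applied was not stated in the sources used here. The deposited table holds p-values and FDR values by the authors, their signed folds, and a least-squares mean signal per group. It holds the authors' own comparison and no values per sample, so no test could be refitted: their FDR of 0.05 is the only test of each gene, and their folds were not used. Benjamini-Hochberg adjustment over 23773 tests gave back all 7868 deposited FDR values (relative tolerance 1e-06), which sets the number of genes tested. Means of 0.0001 stand for 0, and no fold was given against them. Folds are ratios of the deposited means.

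Members, lists and tests were chosen with earlier results of these data known. Genes named with mean, fold and FDR were, in each role, the 4 with the largest fold past the test with a higher mean of at least 1, and those listed at 0 in 1 group. Other members past the test were given with their means, and those that missed it with their means and FDR. A few genes are not reported here, and counts by role, list and figure leave them out, while the totals over all 54 members include any of them that is a member.

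Reads per mouse were inferred from the deposited means, an idea that arose from the repeated low values seen in them. The means were solved as sums of whole reads times the worth of 1 read in each mouse, plus 0.0001, keeping a solution where fewer than 0.01 would be found by chance. Of the 7 worths in AOM/DSS, 6 were repeated values and the other was the single value that explained most of the means left over. After exploratory runs the settings went through 2 versions, both run in full. The first used fixed tolerances and stopped at lower means, and the second, which is reported, refined the worths by least squares and added Il22 in AOM/DSS and several higher naive means. Of listed means up to 0.25, 76.9% in AOM/DSS and 83% in naive tissue were solved. Moving each mean by 5e-07 left 1 of 416 and 0 of 489 solved. Over all means tried, up to 2.6 in AOM/DSS and 30 in naive tissue, 59.7% and 48.1% were solved, and 8 of 1562 and 18 of 4652 after the move. Of members tried, the move left 0 of 15 and 0 of 35 solved. On simulated means 400 of 400 were solved rightly in each group. Those were built as sums of whole reads, so they do not show how the search does on means built otherwise. A lower share of the deposited means was solved, so part of them may be built otherwise. If the means are reads per M, which the sources do not state, depths were 8.75 to 10.8 M reads in AOM/DSS and 7.48 to 9.34 M in naive mice.

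Gene positions are from GENCODE M21 on mm10, promoters from RefSeq. Python 3.11.15 and matplotlib 3.10.9 were used. Alternatives tried were a stricter FDR, a minimum fold, a minimum mean, Bonferroni adjustment, added constants, median-centring and, added after the data were seen, means without 1 mouse.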

Additional observations from a re-analysis of the deposited data

Results flagged for a closer look

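Levels per mouse, taken from the inferred reads, set 1 mouse apart from the others of its group for 6 of 25 combinations of gene and group with at least 1 read (Dixon's ratio at the 95% level). The rate of about 1 in 20 by which chance passes this ratio does not hold for counts tied at 0, so the number has no rate to be read against. In AOM/DSS tissue this was the fourth deepest mouse each time, at 5.64 for Csf3 with the next highest at 0.781, at 7.98 for Ifng with 3.10 next, and at 3.09 for Il17a with 0.931 next. In naive tissue it was 1 mouse at 0.234 for Il17f, where the others had no read, 1 mouse at 0.134 for Il5ra, where the others had none either, both of which give the highest possible ratio by construction, and 1 mouse at 0.134 for Il2ra, below the 0.428 of the nearest. The naive values rest on 1 to 4 reads.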

How the results depend on the processing

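Few directions turned under centring, while the number of calls depended on the threshold. Of 47 genes past the test, 13 were lost at an FDR of 0.01, 12 with a fold of at least 2, 4 with a higher mean of at least 1 and 38 with Bonferroni adjustment, under which 9 remained past it, 8 higher and 1 lower. With a fold of at least 2, 3 fallers were left. The median log2 fold of 2.00 became 0.99 with 1 added, 1.88 with 0.1 added, 1.65 for a higher mean of at least 1 and 1.56 after median-centring. A constant added to both means cannot turn a fold, so only centring could change a direction. Of the 45 genes with a fold, Socs6 (-0.0091) and Il34 (-0.17) turned under centring. Without the fourth deepest AOM/DSS mouse, the AOM/DSS means of Csf3, Ifng, Il17a and Il22 would be 2.51, 2.27, 2.06 and 1.98 times smaller. No paired analysis was possible because the table holds no values per sample, and for the same reason no replicate could be left out of the tests. Depth limits the scarce genes, whose reads were few and which could not all be read per mouse.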
